A study of Mus musculus with 12 samples.

Results

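CD34+ cells sorted from Bcor-floxed mouse bone marrow cultures that carried Cre recombinase were compared with unsorted cells of such Cre cultures (BM), on Illumina BeadChip arrays that read messenger RNA with bead-bound probes. Each population gave 3 Cre arrays. A probe was a member of the comparison when its detection p-value, the scanner's measure of whether a bead exceeded the negative controls, was under 0.05 on at least 3 of these 6 arrays. This kept 17725 of the 45281 probes on the array, of which 15251 named 1 gene and stood for 9698 of the 19053 genes with a probe. At the edge of the rule, the 2143 probes detected on exactly 3 of the 6 arrays had a median highest level of 6.22 on the log2 scale, and the 1273 probes detected on exactly 2 had one of 5.71.

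All mice were male, 3 months old, and hemizygous for a Bcor allele with loxP sites around exons 9 and 10 (BcorFl/Y), so the controls carried the floxed allele too. Marrow was grown with 20% serum, stem cell factor at 50 ng/ml, interleukin 6 at 25 ng/ml and interleukin 3 at 10 ng/ml. Cells took up a retrovirus with Cre or an empty one and were selected with puromycin, so Cre acted only in the infected and selected cells and not through a tissue promoter. The 4 groups of 3 arrays were thus CD34+ Cre, BM Cre, CD34+ control (empty virus) and BM control (empty virus). The CD34+ Cre arrays came from 2 marrows, number 2 on 2 arrays and number 4 on 1 array, labelled F4 KO. The labels number the BM arrays 1 to 3 without saying whether these were separate animals, and give no array run. P-values therefore measure the spread between these samples, which may be technical, and the population cannot be told apart from any run or culture that goes with it.

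Bcor is a corepressor on the X chromosome and a subunit of PRC1.1, a Polycomb complex that places ubiquitin on histone H2A at unmethylated CpG islands. CD34 is a surface sialomucin found on blood stem and progenitor cells, and in the mouse also on mast cells. Interleukin 3 and stem cell factor carry marrow progenitors toward mast cells, basophils, neutrophils, eosinophils and macrophages, each of which fills its granules with its own set of proteins. Levels below are log2 signals after background correction and quantile normalisation, a difference is CD34+ Cre minus BM Cre with its standard error (SE), and a gene counts as higher or lower when its limma p-value, adjusted over all member probes by Benjamini-Hochberg, was under 0.05. Values of 6 arrays are given as marrow number 2 repeat 1, number 2 repeat 2 and the array labelled F4 KO, then BM Cre 1 to 3.

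Bcor itself read 8.93, 9.08 and 9.95 on the CD34+ Cre arrays and 8.42, 8.54 and 8.83 on the BM Cre arrays. The array labelled F4 KO lay as high as the control arrays, whose means were 9.80 in CD34+ and 9.75 in BM cells, while the other Cre arrays lay below them. The difference between the populations was 0.72 ± 0.24 (SE, n = 3 and 3, adjusted p = 0.0248), and without the array labelled F4 KO it was 0.41 (adjusted p = 0.0732). The call was also lost without BM Cre 1 (adjusted p = 0.0876) and without BM Cre 2 (adjusted p = 0.0606), and scaling each array to its median in place of the quantiles took the difference to 0.19 (adjusted p = 0.512). Where the probes lie relative to the deleted exons is not given in the sources used here, so the signal counts any transcript that holds the probe. Cd34 mRNA read 9.91, 9.67 and 10.62 in CD34+ Cre and 9.42, 8.66 and 9.07 in BM Cre cells. The groups did not overlap, with a difference of 1.02 ± 0.25 (adjusted p = 0.00472). The control populations differed by 0.09 (adjusted p = 0.818), and the test between the virus arms did not pass (0.93 ± 0.35, adjusted p = 0.192). Median scaling ended the Cd34 call (difference 0.55, adjusted p = 0.0905). Kit, the receptor for stem cell factor, was bright on all 6 arrays, from 14.02 to 15.17, and did not pass the test (0.37 ± 0.21, adjusted p = 0.162).

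A CD34+ array detected 15571 to 16372 probes and a BM array 16985 to 17742, and the median signal of the member probes was 163 to 221 in CD34+ and 294 to 361 in BM samples. The repeats of marrow number 2 correlated at 0.994 over the member probes, each of them correlated with the array labelled F4 KO at 0.956, and the BM Cre arrays correlated with each other at 0.970 to 0.991. Across the populations the correlation was 0.845 to 0.878. In 7537 of 9698 genes the number 2 repeats were closer to each other than to the array labelled F4 KO. Of the mast cell markers, Cpa3, a carboxypeptidase, read at least 15.52, Cma1, a chymase, at least 15.65 and Tpsb2, a tryptase, at least 13.83 on all 12 arrays. Tpsab1, another tryptase, read 8.61 to 11.23 in CD34+ Cre and 12.98 to 14.31 in BM Cre. Its control levels were 11.31 to 12.37 in CD34+ and 14.84 to 15.82 in BM cells. Other mast cell genes varied: Fcer1g was undetected on all 6 BM arrays, Mrgprb2, a receptor for basic peptides, read 6.24 to 7.98 in CD34+ Cre and 5.99 to 8.88 in BM Cre against at least 10.48 in the control samples, and Mitf, a transcription factor, read 4.87 to 7.42 over the 12 arrays. Probes for the T cell genes Cd3e and Cd3g and for the stromal and endothelial genes Col1a1, Col1a2 and Cdh5 were detected on none of the 12 arrays. Pecam1, which endothelial and blood cells share, was detected on all 12, at 10.82 to 11.74.

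Of the 17725 probes, 9113 (51.4%) passed the test, and of the 9698 genes 4959 (51.1%), each gene read by its brightest member probe. CD34+ Cre cells had 2777 genes (28.6%) higher and BM Cre cells 2182 (22.5%), and the counts of each list below stand beside these shares. The groups did not overlap in 5513 genes (56.8%), 3103 of them higher in CD34+ (32.0%) and 2410 higher in BM cells (24.9%). Among the 2474 member probes without a single gene symbol, 1251 (50.6%) passed. With the marrow within an arm as a random block 4130 genes were called, and with the number 2 repeats averaged 4301, against 4959. The median gene differed by 0.13, with quartiles of −0.50 and 0.62. Median scaling moved that to −0.27 and left 1177 genes higher in CD34+ Cre, so the share of calls on the CD34+ side was 56.0% as reported and 26.9% under that scaling, and directions of small differences are read relative to this shift. The sides differed in size: 2-fold or larger differences were called in 1155 genes higher in CD34+ (11.9%) and 1412 higher in BM (14.6%), and 16-fold or larger ones in 8 (0.0825%) against 108 (1.11%). Of all called genes, 557 were undetected on every CD34+ Cre array and 147 on every BM Cre array. Such genes became members through the other group alone. The detection rule thus largely set their direction, here and in the lists below, and the unequal sides are partly built in. Mpo, Prg2, Ear3 and S100a8, all granulocyte products, led the BM side, and 61 of the 108 genes sat in any of the 40 lists described below.

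**Figure D1:**
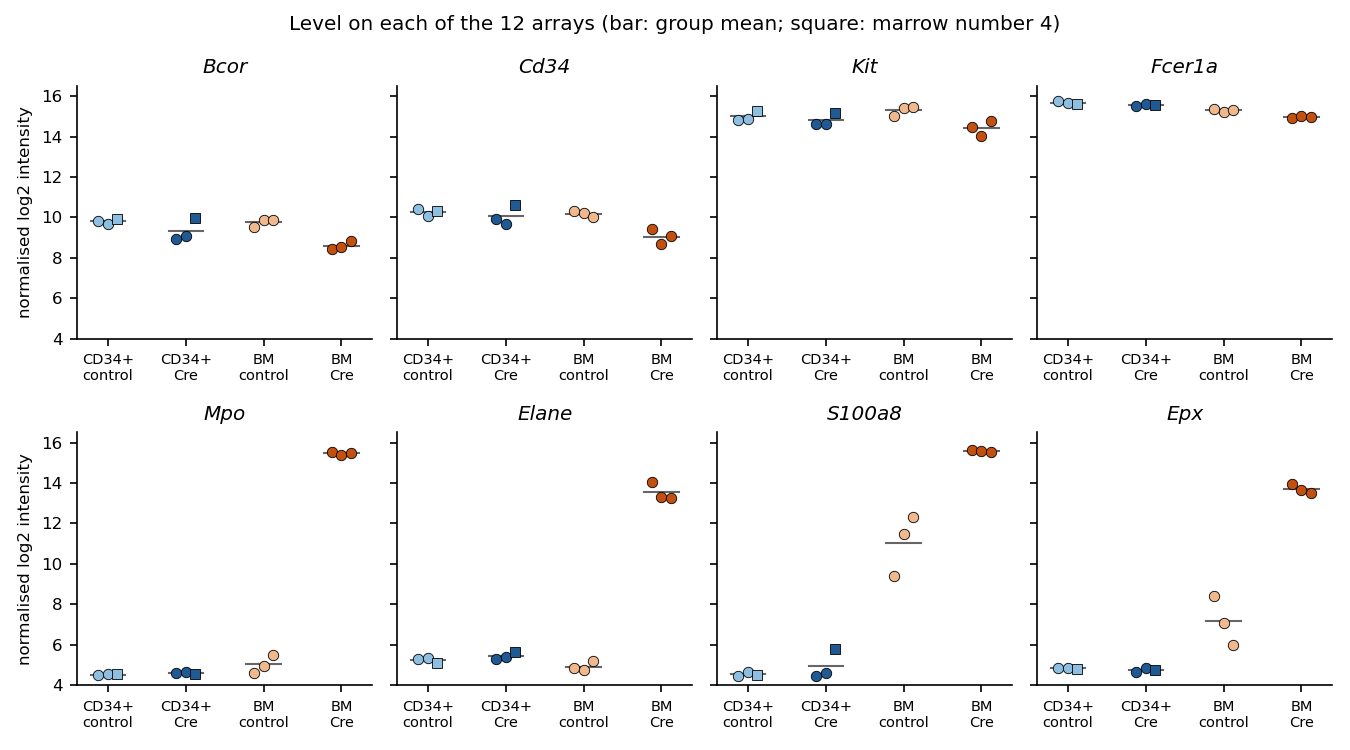
Normalised log2 intensity (vertical) of Bcor, Cd34, Kit, Fcer1a, Mpo, Elane, S100a8 and Epx on each of the 12 arrays, by group. Points are arrays, squares marrow number 4 and bars group means. The 4 granulocyte genes of the lower row sit between 13.28 and 15.62 on the BM Cre arrays and between 4.42 and 5.79 on the CD34+ Cre arrays.

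Neutrophil primary granule proteins, the peroxidase and serine proteases made at the promyelocyte stage, were lower in CD34+ Cre in 5 of 8 measured genes. Mpo, the myeloperoxidase that makes hypochlorous acid, read 4.60, 4.65 and 4.55 in CD34+ Cre and 15.52, 15.39 and 15.50 in BM Cre cells. It was detected on no CD34+ Cre array and near the top of the scale on every BM Cre array, at least 997-fold higher (difference −10.88 ± 0.21, adjusted p = 7.71e-12). Its 3 other member probes differed by −10.5, −8.51 and −7.22. Here and below, genes detected on only some arrays of their lower group are given by their difference, and "at least" sets the mean of the bright group against the lowest detected signal of the arrays where the probe was not above background. Elane, neutrophil elastase, read 5.29, 5.38 and 5.64 against 14.04, 13.28 and 13.28, and 1 of the 3 CD34+ Cre arrays detected it. The groups lay far apart (−8.10 ± 0.23, adjusted p = 3.12e-10). Prtn3, the related proteinase 3, was at least 391-fold higher in BM Cre cells, and Ms4a3, a membrane protein of granulocyte-monocyte progenitors, at least 276-fold. The list's median was −7.22 beside 0.13 for all genes, and 2 members were higher in CD34+ Cre. Chosen after their values were seen, these were Cst7, cystatin F (1.62 ± 0.14, adjusted p = 2.29e-06), and Serpinb1a, an inhibitor of neutrophil serine proteases (0.99 ± 0.15, adjusted p = 0.000183). Cathepsin G (Ctsg), which mast cells make too, was bright in both, 14.96 to 15.13 against 14.72 to 14.81, and did not pass the test (0.28 ± 0.24, adjusted p = 0.362). The summed linear signal of the list was 60710 to 62130 in CD34+ Cre and 124224 to 145041 in BM Cre samples.

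The sequences before the transcription start of 7 granule genes are shown because PU.1 (Spi1) and the C/EBP factors, the regulators that drive granule genes in myeloid cells, bind short motifs there. The first 6 were chosen because they hold such letters, and Epx as one that holds neither. They are the 250 bases before the start from RefSeq on build GRCm38.p6, 5′ to 3′ on the strand of the gene, which is the minus strand for Epx and the plus strand for the others. Capitals mark GAGGAAG, a PU.1 motif, or its other strand CTTCCTC, and in Ngp the C/EBP motif TTGCNNAA or its other strand. Mpo (chr11:87793534-87793783) holds the PU.1 letters at 247 to 241 and at 224 to 218 bases before the start, Elane (chr10:79886062-79886311) at 85 to 79 and Prtn3 (chr10:79879417-79879666), which neighbours it, at 95 to 89. S100a8 (chr3:90668821-90669070) holds them on the other strand at 171 to 165, Pglyrp1 (chr7:18884440-18884689) on its own strand at 113 to 107 and on the other at 63 to 57, and Ngp (chr9:110419558-110419807) holds the C/EBP letters on its own strand at 138 to 131 and on the other at 11 to 4. S100a9 holds the C/EBP letters at 236 to 229. Epx (chr11:87875537-87875786), Ms4a3, Prg3 and Ear6 hold neither motif in this window.
Mpo: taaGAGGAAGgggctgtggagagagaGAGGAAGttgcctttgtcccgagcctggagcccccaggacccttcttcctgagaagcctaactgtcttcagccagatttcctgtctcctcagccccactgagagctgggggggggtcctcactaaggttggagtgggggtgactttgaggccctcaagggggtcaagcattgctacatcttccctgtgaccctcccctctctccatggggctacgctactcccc
Elane: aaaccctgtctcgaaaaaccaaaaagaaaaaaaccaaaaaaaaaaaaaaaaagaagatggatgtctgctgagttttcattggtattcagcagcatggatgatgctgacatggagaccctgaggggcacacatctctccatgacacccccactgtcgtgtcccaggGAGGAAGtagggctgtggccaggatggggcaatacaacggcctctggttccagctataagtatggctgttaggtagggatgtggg
Prtn3: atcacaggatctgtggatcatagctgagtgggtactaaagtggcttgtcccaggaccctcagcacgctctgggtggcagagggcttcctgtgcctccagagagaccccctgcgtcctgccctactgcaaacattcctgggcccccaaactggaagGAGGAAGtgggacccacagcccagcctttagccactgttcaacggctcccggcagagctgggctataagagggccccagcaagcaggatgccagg
S100a8: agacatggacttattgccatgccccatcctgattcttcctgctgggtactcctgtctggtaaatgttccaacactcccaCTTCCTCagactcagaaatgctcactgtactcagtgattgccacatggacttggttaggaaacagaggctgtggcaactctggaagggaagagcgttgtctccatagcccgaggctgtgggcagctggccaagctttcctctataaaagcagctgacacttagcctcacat
Pglyrp1: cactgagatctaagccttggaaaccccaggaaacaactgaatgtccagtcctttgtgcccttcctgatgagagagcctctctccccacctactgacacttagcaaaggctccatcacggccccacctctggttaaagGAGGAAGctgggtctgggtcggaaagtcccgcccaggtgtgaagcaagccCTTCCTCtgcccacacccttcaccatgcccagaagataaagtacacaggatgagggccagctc
Ngp: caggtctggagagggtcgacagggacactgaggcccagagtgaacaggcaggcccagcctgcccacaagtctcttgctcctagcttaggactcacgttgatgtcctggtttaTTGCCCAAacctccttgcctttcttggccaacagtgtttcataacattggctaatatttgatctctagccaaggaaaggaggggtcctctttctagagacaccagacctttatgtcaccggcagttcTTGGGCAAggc
Epx: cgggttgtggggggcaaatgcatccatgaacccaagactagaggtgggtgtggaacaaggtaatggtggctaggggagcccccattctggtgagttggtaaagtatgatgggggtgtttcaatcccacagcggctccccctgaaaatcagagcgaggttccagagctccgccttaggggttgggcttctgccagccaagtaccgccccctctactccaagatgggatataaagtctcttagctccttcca

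Promoters were listed for 85 of the 108 genes that were 16-fold or more higher in BM Cre, for 125 of the 158 genes that were called 4-fold or more higher in CD34+ Cre, and for 7965 of the 9698 genes. GAGGAAG on either strand stood in 32.9% of the first set, 12.8% of the CD34+ set, 13% of all genes with a member probe and 10.6% of the 32851 promoters of the table. TTGCNNAA on either strand stood in 21.2%, 9.60%, 9.22% and 9.56%. The RUNX letters TGTGGT stood in 27.1%, 19.2%, 13.1% and 14.0%, and the GATA letters AGATAA in 17.6%, 5.60%, 7.33% and 9.99%. CAGCTG, an E-box that reads the same on both strands, stood in 12.9%, 15.2%, 13.3% and 13%. Overlapping matches of different motifs were counted for each motif. A match describes the letters in the window and was not tested as a binding site.

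Secondary and tertiary granule proteins, made later in neutrophil maturation, were lower in CD34+ Cre cells in 17 of 20 measured genes and higher in 1 (median −4.20, −2.46 with marrow number 4 alone). Pglyrp1, a peptidoglycan recognition protein, read 4.70, 4.63 and 4.67 in CD34+ Cre and 13.32, 13.32 and 13.34 in BM Cre cells. The BM Cre arrays were alike and the CD34+ Cre arrays undetected, a gap of at least 225-fold (−8.66 ± 0.17, adjusted p = 7.71e-12). Ngp, a neutrophil granule protein of the cystatin fold, was at least 163-fold higher in BM Cre, and the chitinase-like Chil1 at least 61.2-fold. Haptoglobin (Hp), which binds free haemoglobin, was at least 32.5-fold higher. Chil3, a lectin of neutrophils and macrophages, was detected on only the array labelled F4 KO among the CD34+ Cre arrays, at 6.25, and reached 13.88 to 14.90 in BM Cre (−9.23 ± 0.61, adjusted p = 3.23e-07). The summed signal of the list ran from 29112 to 48166 in CD34+ Cre and from 111596 to 144994 in BM Cre samples.

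Calcium-binding S100 proteins and the stefins, protease inhibitors of the granulocyte cytosol, were lower in CD34+ Cre in 12 of 15 genes and higher in 1 (median −5.26). S100a8, which pairs with S100a9 to form calprotectin, read 4.42, 4.58 and 5.79 against 15.62, 15.57 and 15.52. Only the array labelled F4 KO detected it among the CD34+ Cre arrays, and the difference was −10.64 ± 0.57 (adjusted p = 6.64e-08). S100a9 was undetected on all 3 CD34+ Cre arrays and at least 472-fold higher in BM Cre cells. The stefin Stfa1 was higher there by at least 903-fold and Stfa2 by at least 317-fold. Wfdc21, a protein with a whey acidic protein domain, read 4.60 to 4.78 against 9.56 to 10.19, and Ifitm6, a member of the interferon-induced transmembrane family, 4.49 to 4.58 against 9.57 to 10.72. Neither was detected in CD34+ Cre cells.

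Granulocyte receptors followed in 13 of 18 genes, with 1 higher in CD34+ Cre (median −3.41). Plac8, a cysteine-rich protein of myeloid progenitors, was detected in both populations, at 7.82 to 8.19 in CD34+ Cre and 13.86 to 14.08 in BM Cre (−5.96 ± 0.20, adjusted p = 9.11e-10). Cxcr4, the chemokine receptor that holds cells in the marrow, read 4.90, 4.96 and 4.85 against 10.61, 10.86 and 10.93. It was undetected in CD34+ Cre and at least 39.1-fold higher in BM Cre. Ly6c1, a surface antigen of monocytes and granulocytes, was at least 233-fold and Trem3, an activating receptor, at least 44.8-fold higher. The receptor for G-CSF, Csf3r, was detected on 1 CD34+ Cre array and reached 8.15 to 9.13 in BM Cre (−3.35 ± 0.26, adjusted p = 1.26e-06). The summed signal of the receptor list was 9847 to 10960 in CD34+ Cre and 55133 to 59419 in BM Cre samples. In such bulk samples fewer cells of a type and less RNA per cell cannot be told apart, for these and all later lists.

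Among transcription factors of granulocytes and monocytes, 9 of 15 were lower in CD34+ Cre and 3 higher (median −0.98). Cebpe, which drives the late neutrophil programme, read 5.03, 4.64 and 4.55 against 12.29, 12.15 and 11.76. No CD34+ Cre array detected it, and it was at least 93.9-fold higher in BM Cre cells (−7.33 ± 0.32, adjusted p = 1.28e-08). Cebpa, needed for the step into the granulocyte lineage, was at least 4.05-fold higher and Irf8, a monocyte factor, at least 1.79-fold. Cebpg, a family member that lacks an activation domain, went the other way, from 10.16 to 10.62 in BM Cre to 11.46 to 11.81 in CD34+ Cre (1.29 ± 0.18, adjusted p = 8.44e-05, and 0.71 with adjusted p = 0.0646 on another probe). In the Hoxa cluster 5 of 11 genes were measured, Hoxa7 being the clearest at 4.71 to 4.95 against 9.15 to 9.48. Hoxa7 was undetected in CD34+ Cre and at least 14.0-fold higher in BM Cre. Hoxa9 (at least 1.99-fold) and Hoxa5 (at least 4.84-fold) had the same direction. Hoxa13 was higher in CD34+ Cre (1.46 ± 0.22, adjusted p = 0.000160), and the 5 measured genes were split 3 to 2. This split does not describe the cluster, since 10 of its 11 genes had a probe. Hoxa5, Hoxa7 and Hoxa9 became members through BM Cre alone, so the detection rule largely set their direction.

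Eosinophil genes were lower in CD34+ Cre in 9 of 10 measured genes and higher in 1, and their median of −8.37 was the lowest of the 40 lists. Epx, the eosinophil peroxidase, read 4.65, 4.87 and 4.75 in CD34+ Cre and 13.94, 13.63 and 13.49 in BM Cre cells. It was at least 289-fold higher in BM Cre (−8.93 ± 0.44, adjusted p = 2.95e-08). Prg2, the major basic protein of the eosinophil granule, read 4.52 to 4.70 against 15.63 to 15.79, at least 1178-fold higher. The related Prg3 was at least 239-fold higher, and the eosinophil-associated ribonucleases Ear3 (at least 1105-fold) and Ear6 (at least 786-fold) likewise; the Ear genes are near-identical copies, so their probes may share transcripts. None of these 5 genes was detected on a CD34+ Cre array. Summed eosinophil signal was 1262 to 2826 in CD34+ Cre and 158406 to 183501 in BM Cre samples.

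**Figure D2:**
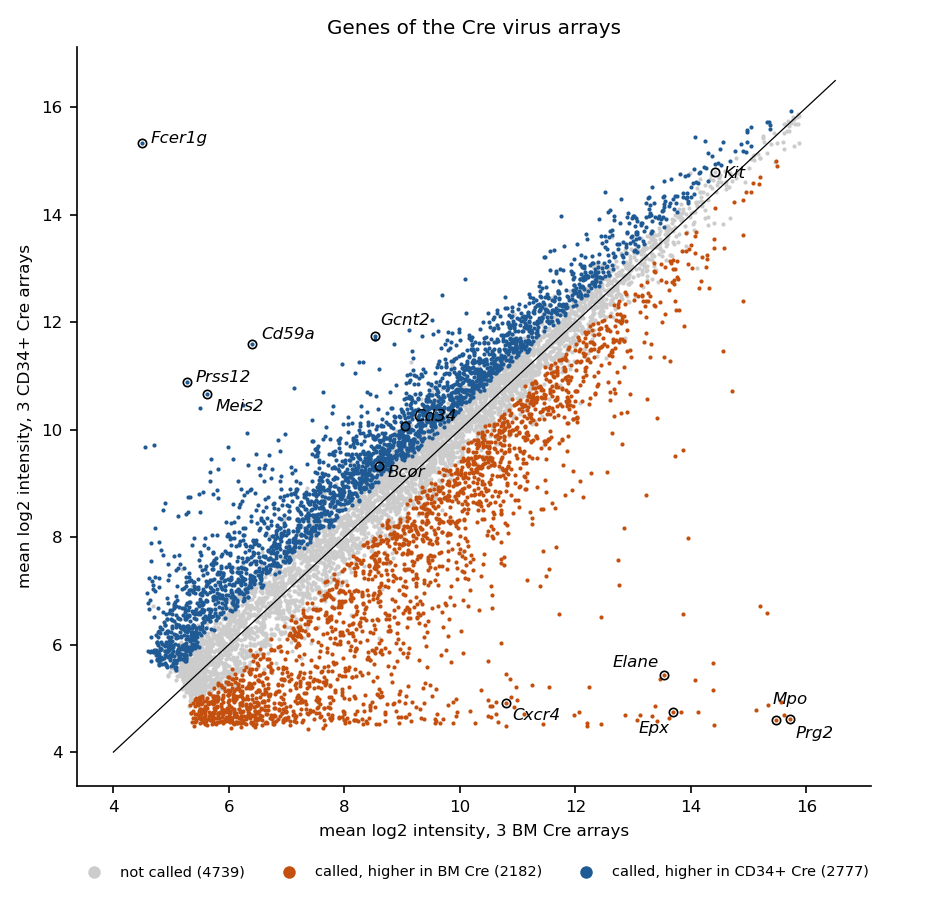
Mean log2 intensity of each of the 9698 genes on the 3 CD34+ Cre arrays (vertical) against the 3 BM Cre arrays (horizontal), with the 2777 genes called higher in CD34+ Cre in blue and the 2182 called higher in BM Cre in orange. Mpo, Prg2, Elane and Epx lie at the floor of the CD34+ axis and at the top of the BM axis, and Fcer1g lies the other way round.

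Of 22 receptor genes of mast cells and basophils, 12 were higher and 2 lower in CD34+ Cre (median 0.59, 0.93 with marrow number 4 alone). Fcer1g, the gamma chain that carries the signal of the high-affinity IgE receptor and of several Fc receptors, read 15.52, 15.39 and 15.12 in CD34+ Cre and 4.53, 4.45 and 4.53 in BM Cre cells. It was undetected on every BM Cre array and at least 1093-fold higher in CD34+ Cre (10.84 ± 0.13, adjusted p = 1.20e-13). The gene had this 1 member probe. Fcer1a, the IgE-binding chain of the same receptor, was bright in both, 15.49 to 15.59 against 14.90 to 15.02, a difference of 0.58 ± 0.08 (adjusted p = 7.11e-05). Cd244a, an immunoreceptor of the SLAM family, was higher in CD34+ Cre (4.89 ± 0.36, adjusted p = 7.72e-07), as was the adenosine receptor Adora3 on its brightest probe (1.20 ± 0.15, adjusted p = 4.84e-05), while another of its probes gave −0.53 (adjusted p = 0.0710). The summed receptor signal was 226784 to 257354 in CD34+ Cre and 119904 to 147148 in BM Cre samples, a linear sum in which Fcer1g alone weighed heavily.

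Proteases and granule proteins of mast cells and basophils were higher in CD34+ Cre in 2 and in BM Cre in 7 of 16 genes, with a median of −0.15 that turned to 0.10 under median scaling. The basophil protease Prss34 (mMCP-11) read 5.88, 6.04 and 8.27 in CD34+ Cre and 14.79, 15.12 and 15.70 in BM Cre cells. The array labelled F4 KO was the highest of the CD34+ Cre arrays and still far below the BM Cre arrays (−8.48 ± 0.65, adjusted p = 1.13e-06). Mcpt8, the other basophil protease, read 9.03, 9.10 and 10.76 against 13.63, 13.93 and 14.05 (−4.24 ± 0.41, adjusted p = 6.28e-06). Hdc, which makes histamine, was higher in BM Cre (−2.50 ± 0.35, adjusted p = 9.79e-05), and so was Slc18a2, which loads amines into granules (−1.91 ± 0.25, adjusted p = 5.90e-05). Summed signal overlapped, 227248 to 327833 in CD34+ Cre and 308699 to 360504 in BM Cre. The mast cell chymase Mcpt4 lay at 11.14 to 14.54 in CD34+ Cre and 10.94 to 11.99 in BM Cre cells.

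Of 20 mediators of mast cells, 8 were higher and 3 lower in CD34+ Cre. Their median of 0.10 moved with single arrays, to −0.12 without the array labelled F4 KO, 0.02 without BM Cre 2, 0.34 without BM Cre 3, 0.59 and 0.53 without either number 2 repeat and 1.48 with marrow number 4 alone, and was −0.02 under median scaling. Alox5, the lipoxygenase that begins leukotriene synthesis, read 14.59 to 14.67 in CD34+ Cre and 13.25 to 13.89 in BM Cre (1.09 ± 0.14, adjusted p = 5.12e-05). Hgf, hepatocyte growth factor, read 5.71, 5.65 and 6.16 against 9.73, 10.67 and 9.75. It was 18.5-fold higher in BM Cre (adjusted p = 2.29e-06). The chemokine Ccl9 was 8.51-fold and interleukin 6 (Il6) 3.38-fold higher in BM Cre cells (adjusted p = 0.000107 and 0.000103). For granule traffic and exocytosis, 8 of 26 genes were higher and 3 lower in CD34+ Cre, and the median of 0.22 turned to −0.16 under median scaling. Sytl2, a Rab27 effector that docks granules, read 11.52 to 12.46 against 8.67 to 9.52 (2.74 ± 0.26, adjusted p = 5.26e-06). Rab27b was higher by 2.17 on its brightest probe, whereas another probe gave −2.79, so its direction depended on the probe. Syt9 was higher (1.83 ± 0.28) and the syntaxin Stx11 lower (−1.44 ± 0.22) in CD34+ Cre, Stx11 not being called on another probe (−0.65, adjusted p = 0.0661).

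Monocyte and macrophage genes were lower in CD34+ Cre in 14 of 23 measured and higher in 1 (median −2.34). Cd14, the co-receptor for lipopolysaccharide, read 4.61, 4.86 and 5.22 against 8.52, 8.56 and 9.14, at least 9.38-fold higher in BM Cre. Arg1, arginase 1, was at least 103-fold and the mannose receptor Mrc1 at least 35.3-fold higher, and neither was detected in CD34+ Cre cells. Adgre1 (F4/80) was detected in both, 7.65 to 7.93 against 11.29 to 11.93 (−3.85 ± 0.35, adjusted p = 3.74e-06). Csf1r, the receptor for M-CSF, differed by −4.24 ± 0.47 (adjusted p = 1.67e-05). The summed signal of the list was 22924 to 26818 in CD34+ Cre and 50706 to 54945 in BM Cre samples. Of 9 dendritic cell and MHC class II genes, 4 were lower and 2 higher in CD34+ Cre (median −1.08): the class II chain H2-Aa was at least 3.05-fold higher in BM Cre, whereas H2-DMb1, a chain of the peptide loading factor, was higher in CD34+ Cre (1.59 ± 0.19, adjusted p = 2.66e-05).

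Genes of other lineages were called on both sides. Erythroid genes gave 6 lower and 3 higher of 16 (median −0.57): Klf1, the erythroid Krüppel-like factor, was at least 8.31-fold and carbonic anhydrase 1 (Car1) at least 8.25-fold higher in BM Cre. Summed erythroid signal was 11290 to 12964 in CD34+ Cre and 14396 to 16617 in BM Cre. Of 19 megakaryocyte genes 8 were lower and 5 higher (median −0.19). Pf4, platelet factor 4, read 4.56, 4.50 and 5.05 against 10.44, 10.40 and 11.05, at least 34.7-fold higher in BM Cre. Itga2b, the platelet integrin alpha chain, was on the CD34+ side (1.26 ± 0.17, adjusted p = 7.76e-05). All 24 stromal and endothelial genes had a probe, and 6 passed the detection rule. Of these 6, 5 were lower and 1 higher in CD34+ Cre (median −2.77). Igfbp7 led at 4.82 to 4.85 against 10.80 to 11.14, with smooth muscle actin (Acta2) at 4.50 to 4.60 against 9.52 to 10.48. With Vcam1 and Thy1, 4 genes of the list were detected on all 3 BM Cre arrays and on no CD34+ Cre array, while the defining stromal markers Col1a1 and Col1a2 were undetected throughout. These 4 genes became members through BM Cre alone, so the detection rule largely set their direction. Of 3 T and NK cell genes, Nkg7, a cytotoxic granule protein, was at least 65.8-fold higher in BM Cre, whereas Cd8b1 was slightly higher in CD34+ Cre (0.67 ± 0.12). Only 3 B cell genes were measured, of which Igll1, a surrogate light chain of pre-B cells, was at least 1.23-fold higher in BM Cre.

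Stem and progenitor genes other than Cd34 did not follow the sort as a group. Of 13 surface genes, 3 were higher and 5 lower in CD34+ Cre (median 0.18, or −0.08 under median scaling). The surface genes Prom1 (at least 2.52-fold), Cd27 (at least 3.53-fold) and Thy1 (at least 4.77-fold) were higher in BM Cre and undetected in CD34+ Cre cells. Of 19 stem cell transcription factors 6 were higher and 6 lower (median 0.02, or −0.38 under median scaling, −0.28 without either number 2 repeat, −0.07 without BM Cre 2 and −0.03 without the array labelled F4 KO). Ikzf2 (Helios) read 8.90, 8.94 and 8.20 in CD34+ Cre and 6.14, 5.88 and 6.66 in BM Cre (2.45 ± 0.25, adjusted p = 9.08e-06). Mecom (Evi1) was at least 2.34-fold higher in CD34+ Cre, with no detection in BM Cre. Bcl11a (−2.71 ± 0.32) and Fli1 (−1.59 ± 0.19) were higher in BM Cre.

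Cytokine receptors were lower in CD34+ Cre in 10 of 25 genes and higher in 5 (median −0.24), Tnfrsf1a, a TNF receptor, being at least 2.34-fold higher in BM Cre. JAK-STAT genes gave 5 higher and 4 lower of 18, beside 28.6% and 22.5% of all genes (median −0.08, 0.07 without BM Cre 1 and 0.06 without number 2 repeat 1). Jak1, a kinase bound to many cytokine receptors, read 7.52, 7.31 and 7.01 against 10.44, 10.14 and 10.54. It was 8.54-fold higher in BM Cre (adjusted p = 3.20e-05). Lif, a cytokine, was higher in CD34+ Cre (2.33 ± 0.39) and Id1, an inhibitor of helix-loop-helix factors, lower (−3.70 ± 0.58). For ERK feedback and immediate early genes, 9 of 27 were higher in CD34+ Cre and 0 lower (median 0.80, 0.41 under median scaling), against 28.6% and 22.5% of all genes. Jun, a subunit of AP-1, read 9.71, 9.72 and 10.36 against 7.12, 6.45 and 7.34 (2.95 ± 0.41, adjusted p = 9.41e-05). The ERK inhibitors Spred1 (1.26 ± 0.21) and Dusp5 (1.41 ± 0.33) and the early response gene Ier3 (1.38 ± 0.27) were higher too.

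Genes of the Atf4 stress and amino acid supply programme had the highest median of the 40 lists: 18 of 28 were higher in CD34+ Cre and 1 lower (median 1.31, 0.93 under median scaling). Nupr1, a stress-induced chromatin protein, read 10.89, 10.92 and 11.38 in CD34+ Cre and 8.01, 9.50 and 7.06 in BM Cre. The groups did not overlap (2.87 ± 0.47, adjusted p = 0.000297). Seryl-tRNA synthetase (Sars) was higher by 1.78 ± 0.22 (adjusted p = 4.07e-05). Slc3a2, the heavy chain shared by several amino acid exchangers, was the exception at −1.89 ± 0.30. In the control cells 6 of these genes were higher and 4 lower, with a median of 0.08. The test between the virus arms passed in 3 of the 28 genes, in 15 with the marrow or BM repeat as a random block, in 12 with the repeat number as a block, and in 0 with the marrow within an arm as a block or with the number 2 repeats averaged.

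Interferon response genes were higher in CD34+ Cre in 11 of 25 and lower in 3 (median 0.53, 0.17 under median scaling, 0.20 without the array labelled F4 KO and 1.00 with marrow number 4 alone). Ifi27 read 12.36, 12.34 and 13.73 against 10.04, 9.77 and 10.44 (2.73 ± 0.31, adjusted p = 2.18e-05), and Usp18, which removes ISG15 from proteins, was higher by 2.08 ± 0.23. Their control populations gave a median of 0.53 as well, with 13 higher and 2 lower. Of 22 p53 targets 9 were higher and 2 lower (median 0.38, or −0.02 under median scaling), among them Mdm2 (1.25 ± 0.25), Sesn2 (2.16 ± 0.35) and Phlda3 (1.37 ± 0.16). Lysosomal genes were called in 23 of 32, with 16 higher and 7 lower (median 0.36, or −0.02 under median scaling). Hexa, a hexosaminidase subunit, was higher (1.17 ± 0.14), whereas the cholesterol carrier Npc2 (−1.76 ± 0.21) and cathepsin B (Ctsb, −1.51 ± 0.20) were lower in CD34+ Cre.

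**Figure D3:**
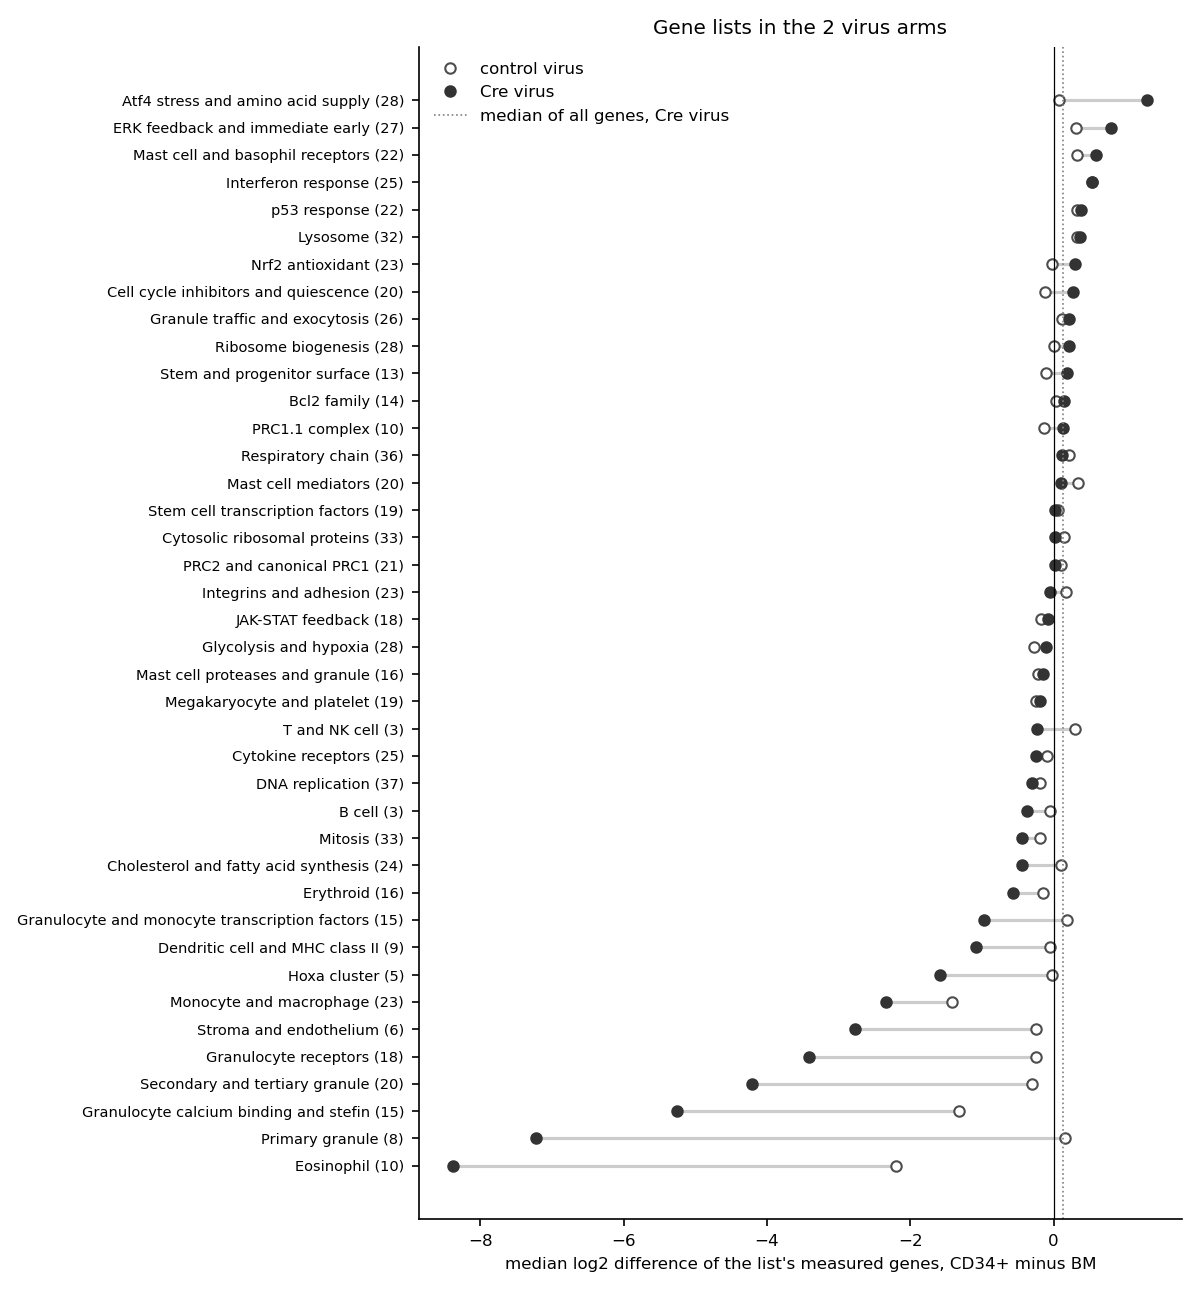
Median log2 difference CD34+ minus BM of the measured genes of each list (number in brackets), filled for the Cre virus and open for the control virus, with a dotted line at the median of all genes. In Cre cells the eosinophil list lies at −8.37, the primary granule list at −7.22 and the Atf4 list at 1.31.

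Proliferation genes moved with 1 array. DNA replication genes were lower in CD34+ Cre in 11 of 37 and higher in 1 (median −0.31), and mitosis genes lower in 8 of 33 and higher in 0 (median −0.44). Without the array labelled F4 KO the medians were 0.25 and 0.12, and with marrow number 4 alone they were −1.43 and −1.75. Pcna, the replication clamp, read 7.76, 7.91 and 7.23 against 10.94, 10.81 and 10.55 and was 8.79-fold higher in BM Cre (adjusted p = 3.59e-07). Rfc4, a subunit of the clamp loader, read 9.48, 9.75 and 8.52 against 10.83, 11.05 and 10.36 (−1.49 ± 0.30, adjusted p = 0.00140). The kinetochore genes Ttk (at least 4.19-fold) and Nuf2 (at least 5.58-fold) were higher in BM Cre and undetected in CD34+ Cre. Among inhibitors of the cell cycle 7 of 20 were higher and 5 lower (median 0.27, −0.12 under median scaling and −0.001 without BM Cre 2): Cdkn2a was higher by 1.77 ± 0.30 and Klf6 by 1.76 ± 0.28, and Rb1 was lower (−1.15 ± 0.11). Other probes were not called for Klf6 (0.93, adjusted p = 0.0838) and Rb1 (−0.08, adjusted p = 0.641). Ndn (necdin), a growth suppressor, was higher by 2.56 ± 0.44, with 9.02 and 9.31 in number 2 and 7.54 on the array labelled F4 KO.

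Metabolic and ribosomal lists had medians between −0.44 and 0.21. Ribosome biogenesis gave 3 higher and 3 lower of 28 (median 0.21, −0.19 under median scaling and −0.33 without BM Cre 3). Cytosolic ribosomal proteins gave 12 higher and 4 lower of 33 (median 0.02, and −0.02 without the array labelled F4 KO), with Rps6 higher by 0.62 ± 0.09 and Rps16 lower (−0.61 ± 0.11). Respiratory chain genes gave 4 higher and 7 lower of 36 (median 0.12), and 20 calls without the array labelled F4 KO. Sdhd, a membrane anchor of succinate dehydrogenase, read 8.15, 8.12 and 7.96 against 10.70, 10.67 and 10.54 (−2.56 ± 0.14, adjusted p = 8.62e-08). Atp5a1 of the ATP synthase differed by −3.08 on its brightest probe and by 1.00 on another. Glycolysis and hypoxia genes were lower in 9 of 28 and higher in 2 (median −0.10). Egln3, an oxygen-sensing prolyl hydroxylase, read 4.89, 4.73 and 4.68 against 10.13, 10.39 and 10.03. It was undetected in CD34+ Cre and at least 25.5-fold higher in BM Cre. Cholesterol and fatty acid synthesis gave 8 lower and 2 higher of 24 (median −0.44, 0.004 without the array labelled F4 KO), with the isomerase Idi1 at −3.17 ± 0.35 and the desaturase Scd1 at −3.04 ± 0.71. Without BM Cre 1 only 5 genes of that list were called.

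Integrins and adhesion genes gave 6 higher and 9 lower of 23, with a median of −0.05 that turned to 0.01 to 0.14 without BM Cre 2, BM Cre 3 or either number 2 repeat. Itgb2, the beta chain of leukocyte integrins, read 5.43, 4.86 and 5.41 against 9.01, 8.89 and 9.38, at least 12-fold higher in BM Cre, whereas Itgb1 was higher in CD34+ Cre on its brightest probe (1.82 ± 0.20) and not called on the other (−0.04, adjusted p = 0.885). The tetraspanin Cd81 was lower in CD34+ Cre (−2.56 ± 0.35). Nrf2 antioxidant genes gave 8 higher and 7 lower of 23 (median 0.30): Gstp1, a glutathione transferase, was higher by 1.17 ± 0.11, and thioredoxin (Txn1), catalase (Cat) and Gclc, which begins glutathione synthesis, were lower, with differences of −2.10, −2.02 and −1.60. Gclc was detected on no CD34+ Cre array, so its difference is taken from a background level. Gstp1 had another probe that gave the opposite direction. In the Bcl2 family 4 were higher and 5 lower of 14 (median 0.14, −0.37 under median scaling). The survival genes Bcl2a1d (−5.77 ± 0.59) and Bcl2a1b (−4.79 ± 0.56) were higher in BM Cre, and as near-identical copies they may share reads of 1 transcript.

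Of the 10 Polycomb genes of PRC1.1, 3 were higher and 2 lower, beside 28.6% and 22.5% of all genes (median 0.12, −0.38 under median scaling). Rnf2 (Ring1B), the ubiquitin ligase of the complex, read 5.44, 5.05 and 5.12 in CD34+ Cre and 8.05, 7.84 and 8.37 in BM Cre. It was detected on 1 CD34+ Cre array, with a difference of −2.88 ± 0.23 (adjusted p = 1.37e-06). Skp1 was lower (−1.03 ± 0.18), and Pcgf1, the RING partner particular to PRC1.1 (0.57 ± 0.13), and the Bcor paralogue Bcorl1 (0.88 ± 0.23) were higher. For PRC2 and canonical PRC1, 5 were higher and 3 lower of 21 (median 0.01, −0.39 under median scaling), with Eed, which reads the H3K27 methyl mark, at 8.72 to 9.14 against 10.85 to 11.42 (−2.22 ± 0.24, adjusted p = 1.52e-05). Without CD34+ Cre number 2 repeat 1 only 5 genes of that list were called.

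The genes furthest on the CD34+ side belonged to no single list, and 2 of the 8 at 16-fold or more were in any of them. Prss12, a serine protease known from neurons (neurotrypsin), read 11.17, 11.06 and 10.43 against 4.97, 5.82 and 5.04. It was detected on 1 BM Cre array, with a difference of 5.61 ± 0.26 (adjusted p = 2.04e-08). Cd59a, an inhibitor of the complement pore, read 10.91, 11.08 and 12.81 against 6.59, 5.72 and 6.92 (5.19 ± 0.43, adjusted p = 2.02e-06). Meis2, a homeodomain cofactor, read 11.86 and 11.73 in number 2 and 8.38 on the array labelled F4 KO, all above the 5.56 to 5.69 of BM Cre (5.04 ± 0.77, adjusted p = 0.000186). The gene Lrrc57 was at least 21.6-fold, Gpr137b-ps at least 22.2-fold and the endoplasmic reticulum prolyl isomerase Fkbp9 at least 10.5-fold higher in CD34+ Cre. Gpx3, a secreted glutathione peroxidase (4.21 ± 0.66), Gnai1, an inhibitory G protein subunit (3.75 ± 0.34), and Cops8 of the COP9 signalosome (3.65 ± 0.15) followed. Aldh1l2, the mitochondrial formyltetrahydrofolate dehydrogenase, read 9.71, 9.82 and 9.48 against 4.99, 8.09 and 4.86, with BM Cre 2 apart from the other BM Cre arrays (3.69 ± 0.69, adjusted p = 0.000808).

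**Figure D4:**
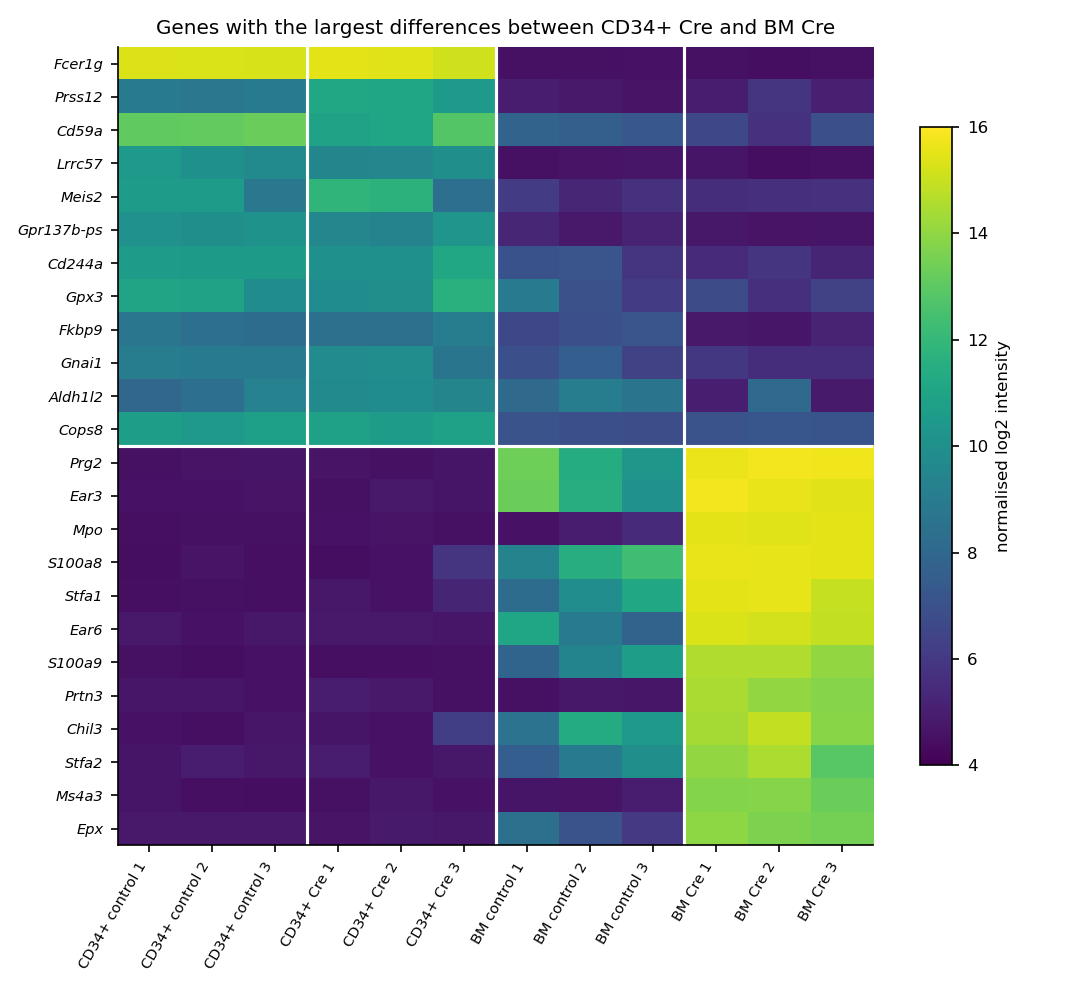
Normalised log2 intensity (colour) of the 12 named genes with the largest difference on each side, by array, with columns grouped as CD34+ control, CD34+ Cre, BM control and BM Cre. CD34+ Cre 3 is the array labelled F4 KO. Fcer1g is bright on all 6 CD34+ arrays and dark on all 6 BM arrays, and Prtn3 is bright on the 3 BM Cre arrays alone.

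The same comparison in the control cells, on 6 other arrays, called 3819 genes (39.4%), 2034 higher in CD34+ (21.0%) and 1785 higher in BM (18.4%). The genes and their probes were chosen on the Cre arrays. Genes detected only in control cells are therefore left out, and the shares called in the virus arms are not on equal terms. Of the calls in Cre cells 3041 were also called the same way in control cells, 61.3% of the Cre calls and 79.6% of the control calls, and 41 were called the opposite way. All 8 genes at 16-fold or more on the CD34+ side were among the shared ones. Fcer1g differed by 10.80 in control cells, Lrrc57 by 5.44, Gpr137b-ps by 4.97 and Cops8 by 3.72, and the difference between the virus arms was small beside its error for Fcer1g (0.04, adjusted p = 0.957) and Cops8 (−0.07, adjusted p = 0.930). On the BM side Pf4 (−6.15 in control cells), Jak1 (−3.49), Pcna (−3.31), Atp5a1 (−2.92), Rgs18, a regulator of platelet signalling (−3.18), and Idi1 (−2.88) were lower in CD34+ cells with the empty virus too. Of the 9698 genes, 64 were detected on all 6 CD34+ arrays and no BM array, and 197 on all 6 BM arrays and no CD34+ array.

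Whether the Cre populations differed by another amount than the control populations was tested in the same fit. This difference passed in 583 genes (6.01%), 157 positive (1.62%) and 426 negative (4.39%). Deviations of arrays of the same number correlated across the virus arms at 0.13 to 0.416 in BM and 0.338 to 0.493 in CD34+ cells, which came from the same marrows in both arms. With the marrow or BM repeat as a random block 1131 genes passed, all 583 among them, and with the repeat number as a fixed block 1064, 579 of them shared. With the marrow within an arm as a block 317 passed, and with the number 2 repeats averaged 315, of which 317 and 314 were among the 583. Of the 2182 genes higher in BM Cre, 390 had it in that direction and 4 against it, and of the 108 genes at 16-fold or more, 82. Of the 2777 genes higher in CD34+ Cre, 136 had it in that direction and 5 against. These sets were picked by the Cre difference that also enters this test, so agreement in direction is favoured by the selection. Mpo differed by −0.50 between the control populations and by −10.38 more between the Cre populations (adjusted p = 1.68e-09). Prtn3 (−9.36), Ms4a3 (−8.77) and Elane (−8.43) likewise had control differences between −0.22 and 0.33. Of the control arrays, 1 BM array detected Mpo and none detected Prtn3, Ms4a3 or Elane. Their control differences thus compare background levels, and the size of the values depends on that level. S100a8 already differed by −6.53 in control cells and by −4.11 more in Cre cells (adjusted p = 0.00994), and Prg2 by −7.09 and −4.01. Among the lists, the difference passed in 14 of 20 secondary and tertiary granule genes, 11 of 18 granulocyte receptors, 9 of 15 calcium-binding and stefin genes, 7 of 10 eosinophil genes and 6 of 8 primary granule genes. With the number 2 repeats averaged these counts were 9, 10, 8, 6 and 6. Of the 71 named genes with this call, 57 kept it with the marrow within an arm as a block and 55 with the repeats averaged, where S100a8 (adjusted p = 0.0750) and Gcnt2 (adjusted p = 0.0861) lost it.

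Outside the granulocyte lists, Nkg7 (−6.34), Igfbp7 (−5.28), Egln3 (−5.17), Acta2 (−4.89), Hgf (−4.69) and Hoxa7 (−4.49) had a larger gap in Cre cells. Of the 9698 genes, which were chosen by detection on the Cre arrays, 187 were detected on all 3 BM Cre arrays and none of the other 9. On all 3 CD34+ Cre arrays and none of the other 9 there were 6. The lowest detected level was 5.24 to 5.26 on BM Cre and 5.44 to 5.60 on CD34+ Cre arrays, so dim probes could count as detected in BM Cre alone. On the positive side Gcnt2, which branches poly-lactosamine chains, read 12.20, 12.16 and 10.88 in CD34+ Cre and 8.69, 7.85 and 9.04 in BM Cre cells, and its control means were 5.57 and 5.27. It was thus higher on every Cre array than those control means, with a difference between the arms of 2.92 (adjusted p = 0.010). Golm2, a Golgi membrane protein, differed by −0.86 in Cre and by −3.85 in control cells (2.99, adjusted p = 1.13e-05). It was detected on no CD34+ array of either arm, and read 8.24 to 8.85 in BM control and 5.34 to 5.52 in BM Cre cells. Aldh1l2 (3.74, adjusted p = 0.0467), Fam155a (2.41), Pkia, an inhibitor of protein kinase A (2.38), and Albfm1 (2.35) followed. The Aldh1l2 call was lost without BM Cre 1, BM Cre 3 or either number 2 repeat (adjusted p = 0.0902 to 0.118). Without BM Cre 1, BM Cre 2 or either number 2 repeat the adjusted p was 0.0605 to 0.0776 for Pkia and 0.0506 to 0.0583 for Albfm1. Without the array labelled F4 KO 822 genes passed this test, against 583 with it.

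**Figure D5:**
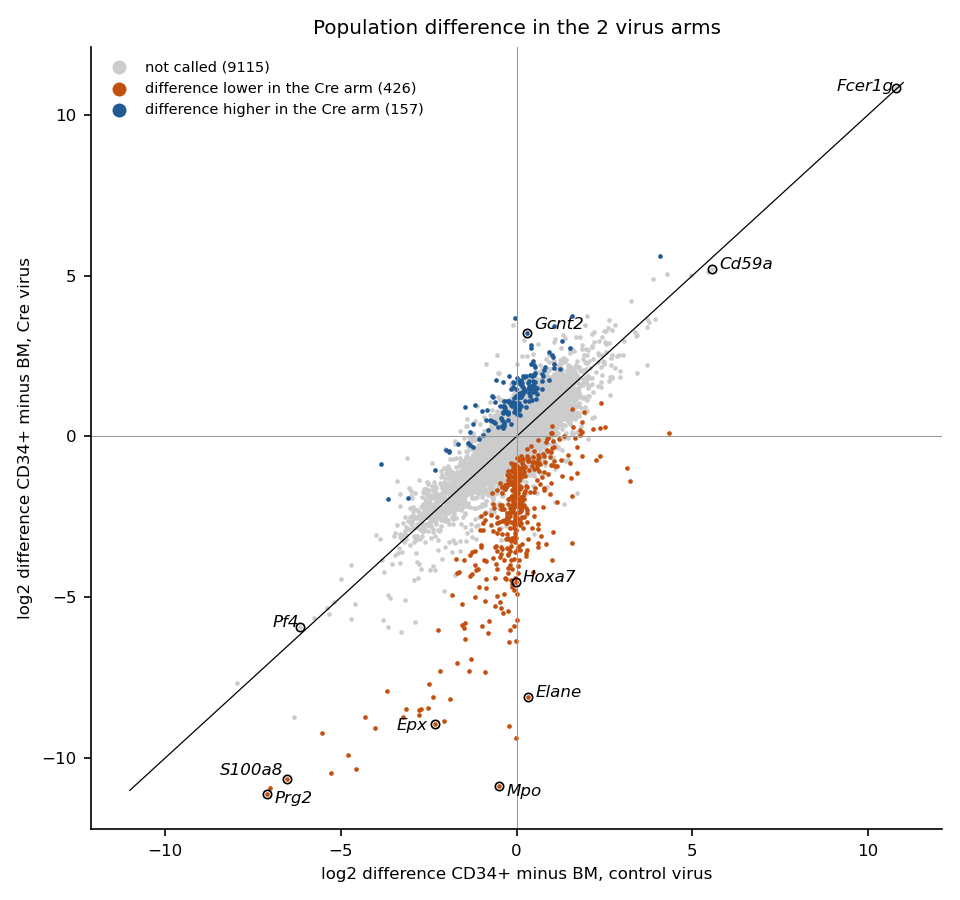
Log2 difference CD34+ minus BM with the Cre virus (vertical) against the same with the control virus (horizontal), points being the 9698 genes and the line marking equal differences. Orange and blue mark the 426 and 157 genes where the arms differed. Fcer1g lies on the line at 10.84 and 10.80, and Mpo off it at −10.88 and −0.50.

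Marker levels moved with the comparison in both directions. Summed granulocyte receptor signal was 8033 to 8344 in CD34+ control and 18931 to 21988 in BM control samples, and summed eosinophil signal 2038 to 2592 and 4096 to 25744, so the BM Cre samples were the highest of the 4 groups on both lists. Summed mast cell receptor signal ran from 255191 to 270888 in CD34+ control and from 209697 to 213569 in BM control samples. These sums are linear, and Fcer1g, with means of 15.33 in CD34+ control and 4.54 in BM control, weighed heavily on that gap. By gene, 8 of the 22 receptors were higher in CD34+ control and 5 in BM control. The part of the summed signals in the other gene differences was not tested. In all, 4753 of the 4959 called genes did not overlap between the groups, and 4467 were called the same way without the array labelled F4 KO. Among 1250 further probes of genes with 2-fold calls, 969 had the direction of the brightest probe, 720 were called so and 112 were called the opposite way. Among the genes given by a difference, Gclc was detected on no CD34+ Cre array, Csf1r and Bcl2a1d on 1, and Id1 and Bcl2a1b on 2. Hoxa13, Syt9, Itgb1 and Aldh1l2 were detected on 1 BM Cre array and Bcorl1 on 2.

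The authors' deposited table of scaled signals left out part of this. Its lowest value, 24, was listed for 892 member probes in all 6 Cre columns. In the authors' deposited table Mpo stood at 24 on all 6 Cre arrays, whereas the scanner signals of BM Cre 1 to 3 were 45078, 39479 and 43623. S100a8, Epx and Prg2 were likewise at 24 in the BM Cre columns of the authors' deposited table, while Elane was listed there at 13489, 6987 and 7783. Of 83 member probes with a scanner signal above 500 on every BM Cre array and 24 in every CD34+ column, Cre and control, 78 were at 24 in the BM Cre columns of the authors' deposited table too. Fcer1g was listed at 41061 to 52776 in CD34+ Cre and at 24 in BM Cre in the authors' deposited table. How those values were set to 24 is not given in the sources used here, and the levels above come from the scanner signals.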

How the data were processed

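Labelled RNA of 12 samples was read on 1-colour Illumina BeadChips. The authors deposited, per the file headers, background-subtracted intensity values of every probe, each with its detection p-value and not scaled between arrays (from −32.65 to 70482). They also deposited a table of scaled intensity values with a lowest value of 24; above that value it ranks probes as the scanner signals do (rank correlation at least 0.993 on each Cre array), but bright probes also stand at 24, and its method and centring are not given in the sources used here, and the submitters' processing notes name RMA only. From the deposited intensity and detection p-value, limma 3.58.1 (R 4.3.3) computed log2 levels by neqc (normexp background, quantile normalisation, offset 16) over all 12 arrays. Group means were fitted with lmFit and eBayes with an intensity trend (8 residual degrees of freedom), and p-values were adjusted by Benjamini-Hochberg over the 17725 member probes with a threshold of 0.05. A gene was read by its member probe with the highest mean over the 6 Cre arrays, named by the platform annotation, and probes with several or no symbols stayed in the fit.

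On simulated data of these 17725 probes, 100 were changed by 1 and 100 by 2 on the log2 scale. The fit recovered 57% and 100% of these, with 8 false calls. The simulated errors were independent between arrays, and far fewer probes changed than the 51.4% called here. These values therefore do not give the power or the error rate of this comparison. The number of arrays limits the precision, and a saturated or undetected probe gives only a bound. The labels do not pair CD34+ with BM arrays, and deviations of CD34+ Cre and BM Cre arrays of the same number correlated at −0.00232 and 0.212. Across the virus arms CD34+ arrays share marrow numbers, and BM arrays of the same number correlated at 0.13, 0.416 and 0.363. Deviations of arrays of unlike number were not compared, so these values do not settle the pairing. Blocked counts therefore stand beside the called genes and the test between the arms. Named genes were Bcor, Cd34, Kit and the 4 markers, the 12 largest called differences each way with groups that did not overlap, no more than 4 genes a list, taken by smallest p, and the 6 largest differences between the virus arms each way. The members and lists were chosen with earlier results of these data known. Other genes named from the detection checks were Cpa3, Cma1, Tpsb2, Tpsab1, Mrgprb2, Mitf, Pecam1, Mcpt4, Cd3e, Cd3g, Col1a1, Col1a2 and Cdh5. Alternatives covered normalisation, background, offset, filter, the authors' table, replicate blocks, the probe rule and leaving out each array. Python 3.11.15 with pandas 2.3.3 and matplotlib 3.10.9 made the tables and plots.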

Additional observations from a re-analysis of the deposited data

Results flagged for a closer look

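For 71 named genes the gap between CD34+ and BM cells differed between the Cre and the control virus, by the interaction term of the limma fit across all 12 arrays (adjusted p under 0.05). Values are log2, the CD34+ minus BM difference in Cre minus that in control cells. Primary granule genes were Mpo (−10.38), Prtn3 (−9.36), Ms4a3 (−8.77) and Elane (−8.43). Among secondary granule genes the values were Ngp (−6.29), Pglyrp1 (−5.87), Hp (−5.81), Chil1 (−5.61) and Chil3 (−3.71). For S100, stefin and related cytosolic genes they were Stfa1 (−5.18), S100a9 (−5.09), Stfa2 (−5.03), Ifitm6 (−4.94), Wfdc21 (−4.66) and S100a8 (−4.11). Granulocyte receptors gave Trem3 (−5.85), Ly6c1 (−5.73), Cxcr4 (−4.92), Plac8 (−4.47), Csf3r (−3.52) and Itgb2 (−3.00). Eosinophil genes gave Prg3 (−6.77), Epx (−6.61), Ear6 (−5.77), Prg2 (−4.01) and Ear3 (−3.92). Basophil and mast cell genes gave Prss34 (−5.77), Hgf (−4.69) and Mcpt8 (−4.28). Monocyte, class II and lymphoid genes gave Nkg7 (−6.34), Arg1 (−5.22), Cd14 (−2.93), Csf1r (−2.54), Adgre1 (−2.34), H2-Aa (−2.28), Tnfrsf1a (−1.95), H2-Eb1 (−1.05) and Igll1 (−1.03). Transcription factors gave Cebpe (−6.43), Hoxa7 (−4.49), Id1 (−3.96), Bcl11a (−3.33), Hoxa5 (−3.13), Klf1 (−3.07), Cebpa (−2.46), Irf8 (−1.29) and Hoxa9 (−1.28). Erythroid, stromal, progenitor and glycolytic genes gave Igfbp7 (−5.28), Egln3 (−5.17), Acta2 (−4.89), Car1 (−4.07), Hk3 (−3.00), Thy1 (−2.93), Car2 (−2.69), Cd27 (−2.55), Vcam1 (−2.33) and Prom1 (−2.13). Positive values, a larger or less negative CD34+ excess with Cre, were those of Aldh1l2 (3.74), Golm2 (2.99), Gcnt2 (2.92), Fam155a (2.41), Pkia (2.38), Albfm1 (2.35), Sytl2 (2.32), Fkbp9 (2.18), Prss12 (1.53), Ikzf2 (1.43), Alox5 (1.31), Usp18 (1.29), Spred1 (1.28) and Adora3 (1.16). The selection of these genes by their size in the Cre arrays favours large values here, and their number is no count over all genes, of which 583 passed. Many of the named genes were undetected in CD34+ Cre or in control cells, and the size of their values then depends on the background level.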

How the results depend on the processing

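Of 3682 values of named genes under the alternatives, 3547 kept their direction and side of the threshold, 123 lost the call, 4 gained it and 8 changed sign. Of the list medians 690 moved by less than the spread between replicates and 110 by more. The authors' value table gave 3178 called genes, 1309 of them higher in CD34+ Cre (41.2% of calls), and 178 where the virus arms differed; it lists 46 of the 173 named genes at its lowest value on all 6 Cre arrays. In it S100a8 (0.0809), Chil3 (0.370), Ly6c1 (0.0105), Nkg7 (0.0140), Rrs1 (0.282) and Bcl2a1d (0.0556) turned positive. The mean of a gene's probes turned Rab27b to −0.31, its member probes having given 2.17 and −2.79. Marrow number 4 alone turned Pkia to −0.21, with 7.22 on the array labelled F4 KO and 6.87 to 7.87 in BM Cre. Why these probes and arrays differed was not tested. Median scaling left 1177 genes higher in CD34+ Cre. Leaving out 1 array gave 4259 to 5015 called genes, 2301 to 2849 of them higher in CD34+ Cre, and 435 to 822 where the virus arms differed.

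The repeat number as a replicate block gave 5568 called genes, against 4959, and 1064 where the arms differed, against 583. The marrow or BM repeat as a random replicate block gave 4732 called genes and 1131 where the arms differed. The marrow within an arm, a block added after seeing the data, gave 4130 and 317. Averaging the number 2 repeats gave 4301 and 315. The Bcor call was lost with the 6 Cre arrays alone (adjusted p = 0.0833) and under median scaling (difference 0.19, adjusted p = 0.512). Dim probes near the background, 2143 of them on exactly 3 of 6 arrays, limit what can be said of low genes.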
